A study of Mus musculus with 4 samples.

Results

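Cytosolic ribosomal protein genes encode the protein subunits of the ribosome that translates nuclear transcripts. The genes described here were chosen by name. They are the genes whose probe sets carry a single gene symbol that opens with Rpl or Rps followed by a digit or the letter p, with the Rps6k kinases and symbols containing -ps left out. There were 49 such genes among the 18193 genes named on the array, and they had 104 probe sets. By their roles 20 are large-subunit proteins, 20 are small-subunit proteins, 2 belong to the stalk, and 7 are paralogs or genes that only share the name. Each gene is represented by its brightest probe set, and 47 of the 49 passed a filter on dim signals. Rpl3l, the heart and skeletal muscle paralog of Rpl3, did not pass, with intensities of 7.37 and 9.54 on the SOCS3-null arrays and 11.2 and 7.72 on the wildtype arrays. Rps16 did not pass either, with 4.24 and 4.30 in SOCS3-null and 4.38 and 4.34 in wildtype. Rps16 is a core protein of the small subunit, so a dim probe set here does not show that a transcript is lacking.

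The study measured total RNA of mouse embryonic stem (ES) cells on 4 expression arrays. There were 2 arrays of SOCS3-null cells, in which the gene for a feedback inhibitor of JAK and STAT signalling is inactive, and 2 arrays of wildtype cells. The labels give neither culture condition nor strain, clone or age, and they do not say whether arrays of a genotype came from separate cultures. The p-values below thus reflect nothing beyond array-to-array spread, part or all of which may be technical.

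The targeted gene checks the labels. Socs3 had 19.3 and 12.9 on the SOCS3-null arrays and 3024 and 1884 on the wildtype arrays, a change of -6.23 on the log2 scale (limma adjusted p = 0.00459). Markers of cell types differed as well. All 8 primitive endoderm markers rose, with summed intensities of 17854 and 17397 in SOCS3-null and 431 and 436 in wildtype. Of 8 ES cell markers Sox2 alone passed the test and fell, though all 8 had a change below 0 and 3 had an unadjusted p under 0.05. Zfp42 had the largest change (-1.70, limma adjusted p = 0.0691). The sums of the ES cell markers were 66642 and 62054 in SOCS3-null and 78104 and 78448 in wildtype. Of the 7 fibroblast markers tested limma called none, with 0 at an unadjusted p under 0.05, though 6 had a change above 0. Of 2 blood markers tested Cd68, which macrophages express, rose by 1.13 (limma adjusted p = 0.0246). None of the 3 trophoblast markers tested was called, with 1 at an unadjusted p under 0.05. Hand1 (0.90) and Krt7 (1.64) were higher on both SOCS3-null arrays, and Ascl2 (-0.52) was lower on both. Krt7 was uneven, with 52.6 and 234 in SOCS3-null and 26.4 and 25.7 in wildtype. The summed intensities of the trophoblast list were 125 and 337 in SOCS3-null and 95.2 and 81.8 in wildtype, those of the blood list 300 and 234 in SOCS3-null and 132 and 122 in wildtype. Fewer cells of a type and less RNA per cell cannot be told apart in such bulk samples.

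A ribosome holds 1 copy of nearly every subunit, and unassembled subunits are degraded, so cells make the subunits in matched amounts. Part of this matching is translational: transcripts of ribosomal proteins open with a run of pyrimidines, the 5′ terminal oligopyrimidine (TOP) motif, through which mTOR signalling and the RNA-binding protein Larp1 set how well they are translated. Pluripotent stem cells divide fast and have a high demand for ribosome assembly, while the ribosomal protein messages are among the most abundant in any cell. Many of these genes have processed pseudogenes of nearly the same sequence, so probes can be shared between copies.

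The start of the transcript is shown for some of the genes described below, with and without a pyrimidine run there, because the TOP run is the feature by which these messages are known. The selection is not a sample of the family. Promoter sequences came from RefSeq (GRCm38.p6), which held a window for 43 of the 49 genes. Each line gives 30 bases, 10 before the annotated start and 20 from it on, read 5′ to 3′ on the gene's strand. Capitals mark the run, defined as at least 5 C or T in a row that open with a C within 5 bases of the start, and a line without capitals has no such run.
Rplp2 at chr7:141447641-141447670, plus strand: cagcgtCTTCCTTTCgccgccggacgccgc
Rpl12 at chr2:32961702-32961731, plus strand: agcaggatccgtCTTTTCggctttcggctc
Rpl14 at chr9:120571507-120571536, plus strand: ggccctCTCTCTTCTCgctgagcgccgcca
Rps10 at chr17:27635225-27635254, minus strand: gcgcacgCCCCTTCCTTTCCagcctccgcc
Rps6 at chr4:86857348-86857377, minus strand: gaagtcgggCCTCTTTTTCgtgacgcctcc
Rps27 at chr3:90213629-90213658, minus strand: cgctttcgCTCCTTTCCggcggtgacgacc
Rps27l at chr9:66946076-66946105, plus strand: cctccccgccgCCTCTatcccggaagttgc
Rpl22l1 at chr3:28805498-28805527, plus strand: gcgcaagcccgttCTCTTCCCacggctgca
Rpl39 at chrX:37085203-37085232, minus strand: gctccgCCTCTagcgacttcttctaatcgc
Rplp0 at chr5:115559457-115559486, plus strand: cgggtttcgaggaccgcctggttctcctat
Rpl6 at chr5:121204491-121204520, plus strand: acctcccgtcattgcttatagaccggaagc
Rpl11 at chr4:136053374-136053403, minus strand: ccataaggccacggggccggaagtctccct
Rps15 at chr10:80292421-80292450, plus strand: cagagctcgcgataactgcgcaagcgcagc
Rps28 at chr17:33824543-33824572, minus strand: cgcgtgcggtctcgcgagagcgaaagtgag
Rps25 at chr9:44407704-44407733, plus strand: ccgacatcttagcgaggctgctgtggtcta
Rpl7l1 at chr17:46782637-46782666, minus strand: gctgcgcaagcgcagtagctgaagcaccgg
Rpl39l at chr16:10170218-10170247, plus strand: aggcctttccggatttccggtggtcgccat

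The longest run in capitals, that of Rps10, has 13 pyrimidines, and those of Rpl39 and Rps27l have 5. Pyrimidines before the C that opens the run stay in lower case. The unbroken stretch of Rpl14 is therefore longer than its capitals, and longer than the run of Rps10. Rps27l has 2 listed starts, and the other one has no run. Among the 43 genes, 20 (46.5%) had the run at a listed start, against 21.2% of the 27025 genes of the promoter table. In the whole window of 300 bases, 250 before the start and 50 after it, the letters CCGGAAG (an ETS-family motif, searched on both strands) stood in 46.5% of these genes and in 9.93% of all genes of the table. The letters AAGATGG, a YY1-type motif, stood in 18.6% against 7.28%, and CACGTG, the E-box bound by Myc and its partners, in 9.3% against 8.09%. None of these motifs holds another. A match is a description of the letters and not a binding site, and a start annotated a few bases away can hide a run.

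The comparison of genotypes asks whether the messages for ribosome subunits depend on SOCS3. No ribosomal protein gene was called at an adjusted p under 0.05 (limma, Benjamini-Hochberg over all 12732 genes tested), neither higher nor lower; a larger pseudocount called 1 lower, described with the paralogs. Over all genes tested 22.7% were called, 13.1% higher and 9.55% lower in SOCS3-null cells. At an unadjusted p under 0.05 stood 2 of the 47, Rpl12 and Rpl22l1, where the share over all genes was 38.5%. The median change of the 47 genes was -0.02 on the log2 scale (SOCS3-null minus wildtype), and that of all genes tested was -0.00. Their changes were also narrowly spread. The middle of the distribution, between its quartiles, ran from -0.07 to 0.04, against -0.24 to 0.30 for all genes, and the median size of a change regardless of sign was 0.05, against 0.27 for all genes.

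**Figure D1:**
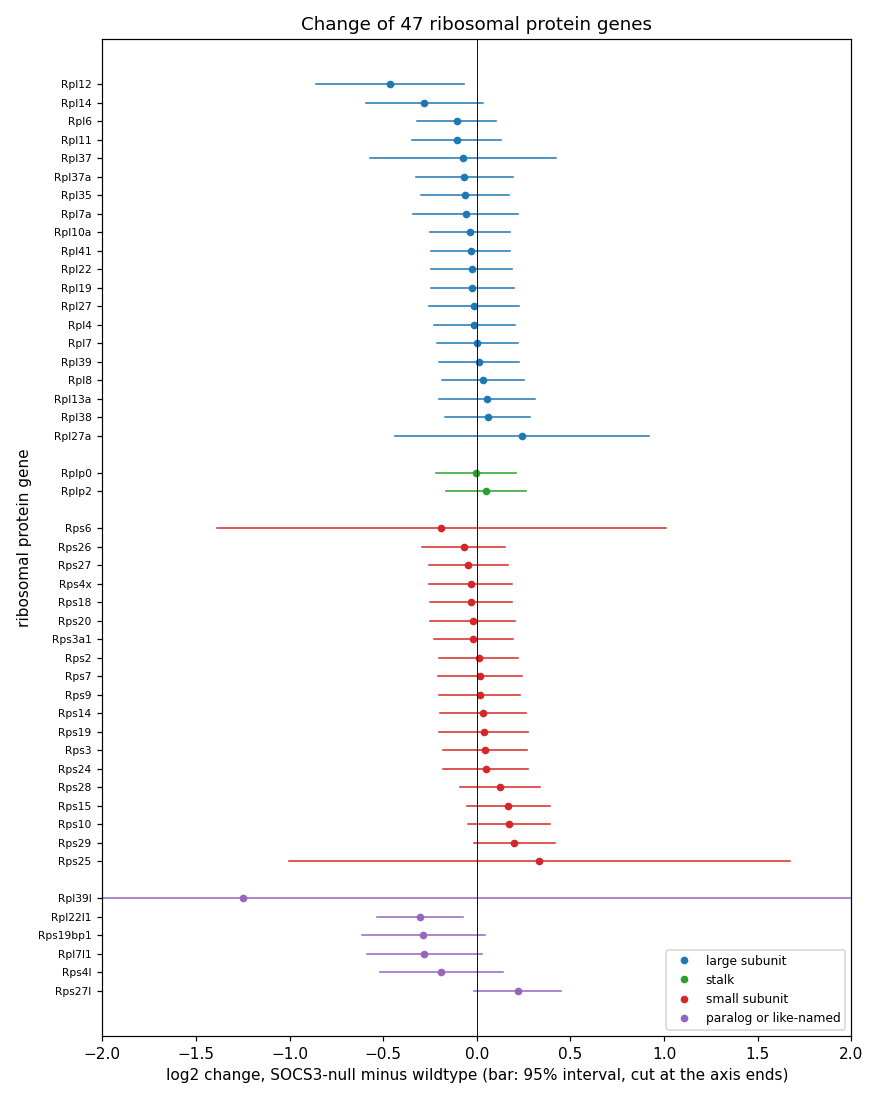
Log2 change (horizontal axis, SOCS3-null minus wildtype) of each of the 47 ribosomal protein genes tested, grouped by role, with 95% intervals as bars that are cut at the axis ends. Most points lie close to 0; Rpl39l at -1.25, Rpl12 at -0.47 and Rps25 at 0.33 lie farthest out.

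A call that is missed does not show that a gene is unchanged, so the intervals matter. The 95% interval of the change lay within 0.5 of 0 on either side for 36 of the 47 genes, and the same was true of 34% of all genes tested. The groups did not overlap for 21 genes, or 44.7% of the 47, against 65.8% of all genes tested. In 9 of them both SOCS3-null arrays were above both wildtype arrays (Rps2, Rps10, Rps15, Rps24, Rps27l, Rps28, Rps29, Rpl38 and Rplp2), which is the pattern of 32.3% of all genes. In 12 of them both were below (Rpl6, Rpl10a, Rpl11, Rpl12, Rpl14, Rpl41, Rps26, Rps27, Rpl7l1, Rpl22l1, Rps4l and Rps19bp1), the pattern of 33.6% of all genes. The other 26 overlapped.

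The stalk is the arm of the large subunit that recruits elongation factors. Rplp0, its anchor on the ribosome, had intensities of 32114 and 31803 on the SOCS3-null arrays and 31685 and 32445 on the wildtype arrays. The wildtype values enclosed those of the SOCS3-null arrays, and the change was -0.00 (95% interval -0.22 to 0.21, limma adjusted p = 0.975). Rplp2, a flexible arm protein, had 33680 and 34332 in SOCS3-null and 32944 and 32754 in wildtype. Its groups lay apart, with SOCS3-null higher, and the change was 0.05 (adjusted p = 0.686).

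Of the 20 large-subunit genes tested 6 had a change above 0 and 14 below, with a median of -0.03. Rpl12 lies at the base of the stalk beside Rplp0. It had 342 and 276 in SOCS3-null cells, against 408 and 453 in wildtype cells. Both SOCS3-null arrays were lower. The change was -0.47 (95% interval -0.86 to -0.07), but with an adjusted p of 0.0944 in the limma fit it was not called. Rpl14, a large-subunit protein that bacteria lack, had 686 and 609 in SOCS3-null and 833 and 746 in wildtype. Its groups also lay apart, and the change of -0.28 had an interval of -0.59 to 0.03. The genes singled out for their size of change here and in the small subunit were chosen after their values were seen.

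Among bright large-subunit genes the differences were smaller. Rpl11, which with 5S RNA can bind Mdm2 when ribosome assembly is disturbed, had 15710 and 16452 in SOCS3-null and 17839 and 16795 in wildtype, a change of -0.11 (-0.34 to 0.13). Rpl6 gave 15672 and 15701 in SOCS3-null against 17012 and 16798 in wildtype, also a change of -0.11 (-0.32 to 0.10). For both the SOCS3-null arrays were lower by little and the interval held 0. Rpl38, needed in the mouse for translation of Hox messages, was at 18660 and 19732 in SOCS3-null and at 18562 and 18277 in wildtype, a change of 0.06 (-0.17 to 0.29). Rpl13a, a subunit released in human cells to silence inflammatory messages, had 34465 and 31231 in SOCS3-null and 31839 and 31373 in wildtype. Its SOCS3-null arrays lay on either side of the wildtype ones.

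Of the 19 small-subunit genes tested 12 had a change above 0 and 7 below, with a median of 0.02. Rps29, a zinc-binding protein of the subunit's head, had 34840 and 34014 on the SOCS3-null arrays and 29568 and 30349 on the wildtype arrays. These groups lay well apart, with SOCS3-null higher. The change was 0.20 (95% interval -0.02 to 0.42, limma adjusted p = 0.149). The other probe sets of Rps29 changed by 0.12 and 0.14.

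Rps10, a head protein mutated in the human anaemia Diamond-Blackfan syndrome, had 23122 and 22840 in SOCS3-null and 20850 and 20012 in wildtype, a change of 0.17 (-0.05 to 0.39). Rps15, near the decoding site, had 19388 and 19508 in SOCS3-null and 17752 and 16892 in wildtype, a change of 0.17 (-0.06 to 0.39). The second probe set of Rps15 changed by 0.01. Rps28, which lies where the message leaves the ribosome, had 26522 and 26984 in SOCS3-null and 24688 and 24407 in wildtype, a change of 0.12 (-0.09 to 0.34). In all 3 the SOCS3-null arrays were above the wildtype arrays and the interval held 0. Rps26, a neighbour of Rps28 at the exit site, went the other way by -0.07, with 15436 and 15836 in SOCS3-null and 16755 and 16104 in wildtype.

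The other bright small-subunit genes lay closer to 0. Rps3, at the entry of the message channel, had 19052 and 18884 in SOCS3-null and 17949 and 18884 in wildtype, a change of 0.04. Rps19, another Diamond-Blackfan gene, had 18154 and 18300 in SOCS3-null and 18459 and 17091 in wildtype, a change of 0.04. For both genes the arrays of the genotypes overlapped.

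Rps6, the small-subunit protein that S6 kinases phosphorylate, was read from a dim probe set. Its intensities were 331 and 139 in SOCS3-null and 267 and 232 in wildtype, so the SOCS3-null arrays lay on both sides of the wildtype ones. The change was -0.19, with an interval from -1.39 to 1.01. Rps25, needed for initiation at some viral internal ribosome entry sites, was as uncertain. It had 247 and 584 in SOCS3-null and 367 and 244 in wildtype, a change of 0.33 (-1.0 to 1.67). For these genes the arrays cannot tell a clear rise from a clear fall.

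The narrow spread went with high intensity. Of the 47 genes, 34 had a mean of at least 10000, and all of these lay between -0.19 and 0.20, with a median size of 0.04. Another 4, all of them paralogs, lay from 1000 to 10000, with changes from -1.25 (Rpl39l) to 0.22. In that range brightness and kind of gene cannot be told apart. The changes of the 9 below 1000 ran from -0.47 to 0.33. The 68 other genes at 10000 or above had a median size of change of 0.13, and 7 of them (10.3%) were called. At 20000 and above there were 10 other genes, of which 0% were called by limma and 0 had an unadjusted p under 0.05. Their median size of change was 0.10, against 0.03 for the 24 ribosomal protein genes of that brightness. Between 1000 and 10000 the share called among other genes was 26.1%, and below 1000 it was 22.4%. The ribosomal protein genes are therefore best read against the few other genes of like brightness; whether the brightest probe sets respond less than in proportion to their transcripts was not tested.

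**Figure D2:**
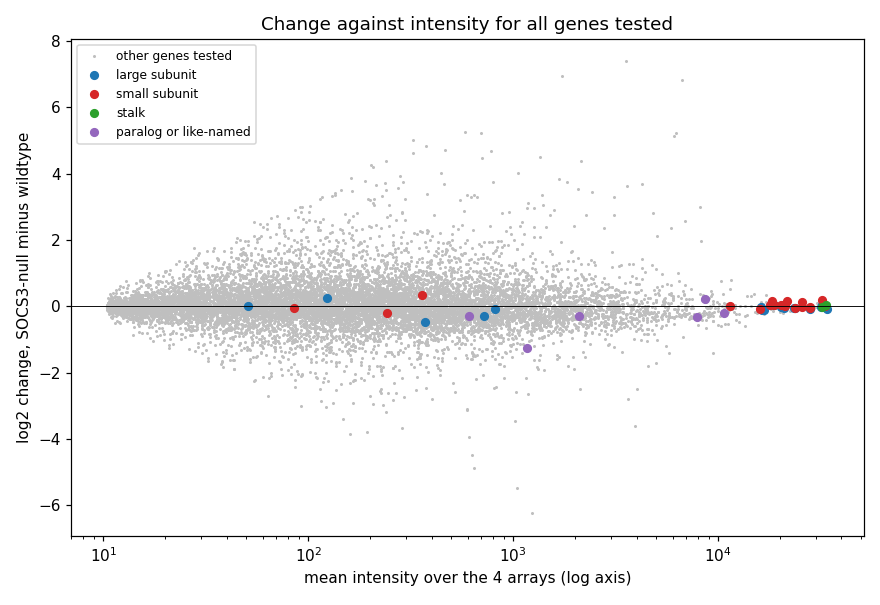
Log2 change (vertical axis, SOCS3-null minus wildtype) against mean intensity over the 4 arrays (horizontal log axis) for all 12732 genes tested, with ribosomal protein genes in colour by role. Of these, 34 sit at 10000 or above, where few other genes are found and points lie near 0.

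Split by subunit at 10000 or above, 4 of 15 large-subunit genes had a change above 0 and 11 below, with a median of -0.03. Of the 16 small-subunit genes 11 had a change above 0 and 5 below, with a median of 0.02. The difference between the subunits was not tested. Subunits shared with bacteria and archaea (17 genes) had a median of 0.01, and those found only beyond bacteria (22 genes) a median of -0.03.

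The paralogs and like-named genes were counted apart from the subunits. Of the 6 tested, 1 had a change above 0 and 5 below, with a median of -0.28. Only Rps4l among them reached a mean intensity of 10000, where most subunit genes lie. The median size of change was 0.28 for the 6. For other genes it was 0.31 between 1000 and 10000 and 0.27 below 1000. Rpl22l1 is the paralog of the RNA-binding subunit Rpl22, and in the mouse its expression is repressed by Rpl22. It had 7290 and 6864 in SOCS3-null cells and 8644 and 8812 in wildtype cells. Both SOCS3-null arrays were below the wildtype arrays. The change was -0.30 (95% interval -0.53 to -0.07) with a limma adjusted p of 0.0747, which became 0.0436 with a pseudocount of 64 in place of 16. Rpl22 itself had 20031 on both SOCS3-null arrays and 20031 and 20796 on the wildtype arrays, a change of -0.03. A further bright probe set of Rpl22 changed by -0.13, with the SOCS3-null arrays lower, and a dim one by 0.17.

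Rpl7l1, whose yeast relative Rlp7 is a factor of large-subunit assembly, had 2007 and 1773 in SOCS3-null and 2191 and 2402 in wildtype. Its SOCS3-null arrays were lower, with a change of -0.28 (-0.59 to 0.03, adjusted p = 0.152). Its other probe sets changed by -0.49 and -0.21. Rpl7 had 20024 and 20604 in SOCS3-null and 20159 and 20387 in wildtype on its brightest probe set, a change of 0.00. Its other probe sets changed by -0.11 and -0.17, with both SOCS3-null arrays below both wildtype arrays. Rps4l had 10877 and 9143 in SOCS3-null and 11278 and 11459 in wildtype, a change of -0.19 (-0.52 to 0.14). Rps4x, its X-linked partner, changed by -0.03.

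Rps27l, a paralog of Rps27 that p53 activates in human cells, was the 1 paralog above 0. It had 9629 and 9003 in SOCS3-null cells, against 8062 and 7937 in wildtype cells. All SOCS3-null values lay above all wildtype values, here and on the other probe sets of the gene. The change was 0.22 (95% interval -0.01 to 0.45, limma adjusted p = 0.146), and the other probe sets changed by 0.21 and 0.12. The Rps27 probe set was dim, at 83.0 and 84.4 in SOCS3-null and 86.2 and 87.5 in wildtype, a change of -0.04. Rps19bp1 encodes a protein that binds Rps19 and is no subunit. It had 531 and 556 in SOCS3-null and 727 and 611 in wildtype, a change of -0.29 (-0.62 to 0.04).

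Within each array the log2 difference between paralog and partner was compared between genotypes. The paralog moved relative to its partner by -0.28 for Rpl22l1, -0.28 for Rpl7l1, -0.16 for Rps4l and 0.26 for Rps27l, and in each of these 4 pairs the groups did not overlap. These values hold for the brightest probe set of each partner. The pair of Rpl39l and Rpl39 did overlap. Among single genes 65.8% of all tested did not overlap, and no such share was taken for differences between 2 genes. Against the other bright probe set of Rpl22 the difference of Rpl22l1 was -0.18, and against the other probe sets of Rpl7 that of Rpl7l1 was -0.16 and -0.11. Dim partner probe sets gave -0.47 for Rpl22l1 and -0.26 for Rps4l. For the brightest partner probe sets the exact permutation p, two-sided, was 0.333 for each of the 4 pairs, which is the smallest that 2 arrays against 2 can give. Such a difference shows unequal change of 2 probe sets and does not compare their levels.

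**Figure D3:**
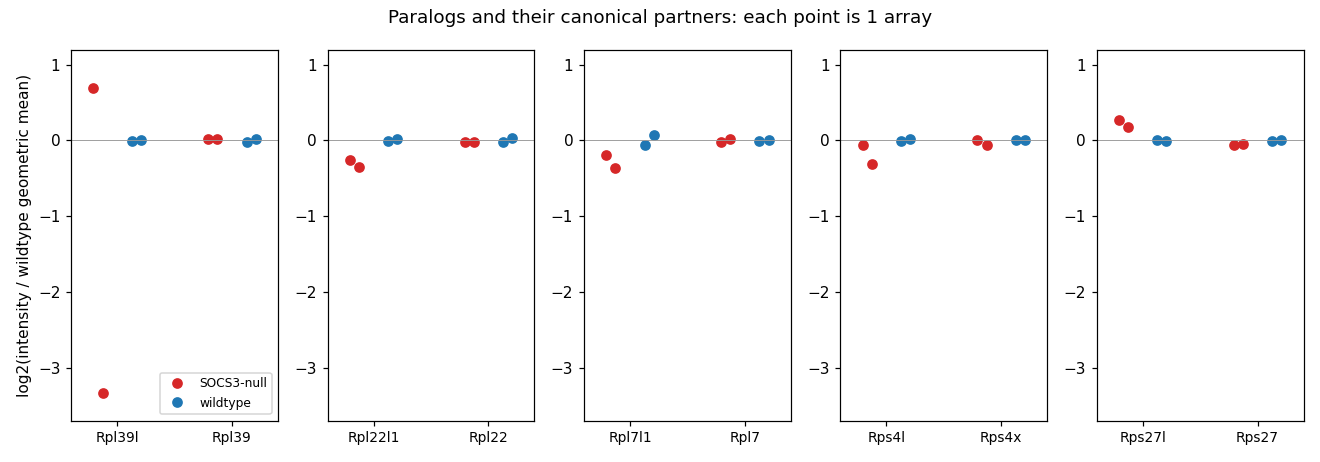
Log2 of each array's intensity over the wildtype geometric mean (vertical axis) for 5 paralogs and their canonical partners, 1 point per array, SOCS3-null left of wildtype. Rpl39l is the exception in spread, with SOCS3-null arrays on both sides of wildtype, while the partners all stay near 0.

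Rpl39l, the autosomal paralog of the X-linked Rpl39 and known in the mouse for its role in male germ cells, differed between the SOCS3-null arrays. It had 2044 and 125 on SOCS3-null replicates 1 and 2, and 1262 and 1269 on the wildtype arrays. One SOCS3-null array was thus above both wildtype arrays and the other far below them. The change of -1.25 has an interval of -5.14 to 2.64 (limma adjusted p = 0.570) and says little about genotype. Without SOCS3-null replicate 2 it was 0.68 (adjusted p = 0.0689), and without replicate 1 it was -3.18 (adjusted p = 0.0599). Rpl39 had 51.2 and 51.1 in SOCS3-null and 50.0 and 51.2 in wildtype, a dim probe set with a change of 0.01.

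The gap of Rpl39l between the SOCS3-null arrays was 3.87 on the log2 scale, and its gap between the wildtype arrays was -0.01 (replicate 1 minus replicate 2). Only 3 of the 12732 genes tested, Rpl39l among them, had a gap that large between the SOCS3-null arrays. The largest gap between the wildtype arrays over all genes was 1.28. The genes measured next to Rpl39l in the GRCm38.p6 order did not share its gap. Nubp1, for example, had 547 and 612 in SOCS3-null and 662 and 695 in wildtype, and Usp7 had 3969 and 3789 in SOCS3-null and 4600 and 4276 in wildtype. The Y-linked Kdm5d did not pass the filter, with 8.54 and 5.54 in SOCS3-null and 5.58 and 5.60 in wildtype. Brighter Y-linked genes did differ between the SOCS3-null arrays. Eif2s3y had 752 and 19.1 in SOCS3-null and 249 and 109 in wildtype, and Uba1y had 146 and 11.9 in SOCS3-null and 23.8 and 17.3 in wildtype. Their part in the Rpl39l values was not tested.

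Of the 47 genes, 23 had more than 1 probe set on the array, and 15 were represented by a probe set whose suffix (_x_at or _s_at) marks probes shared with other sequences. None of the 99 probe sets tested was called by limma, and 7 had an unadjusted p under 0.05; over all 27022 probe sets 15.9% were called. There were 19 genes with 2 or more tested probe sets of at least 1000. Among them the changes of a gene's probe sets lay within 0.1 of each other for 14 genes and farther apart for 5, namely Rps10 (0.06 to 0.20), Rpl35 (-0.10 to 0.06), Rps15 (0.01 to 0.17), Rpl7 (-0.17 to 0.00) and Rpl7l1 (-0.49 to -0.28). The 3 of Rps28 changed by 0.12, 0.10 and 0.08, and all of these were higher on the SOCS3-null arrays. Of the 6 probe sets of Rps10 the 5 bright ones changed by 0.06 to 0.20 and the dim one by -0.19.

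Some dim probe sets of bright genes gave changes unlike those of their bright partners. Rpl41, whose product is the shortest protein of the ribosome, had 23554 and 23225 in SOCS3-null and 23906 on both wildtype arrays on its brightest probe set, a change of -0.03. Its dimmest probe set had 197 and 153 in SOCS3-null and 270 and 296 in wildtype, a change of -0.65 (limma adjusted p = 0.0671). Rps9, a protein that helps to hold decoding accurate, changed by 0.02 on its brightest probe set. A dim one had 152 and 131 in SOCS3-null and 200 and 245 in wildtype, a change of -0.59 (adjusted p = 0.0720). A dim probe set of Rps3 went the other way, with 509 and 767 in SOCS3-null and 423 and 487 in wildtype, a change of 0.45 (adjusted p = 0.288). Which transcripts the dim probe sets read was not tested.

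**Figure D4:**
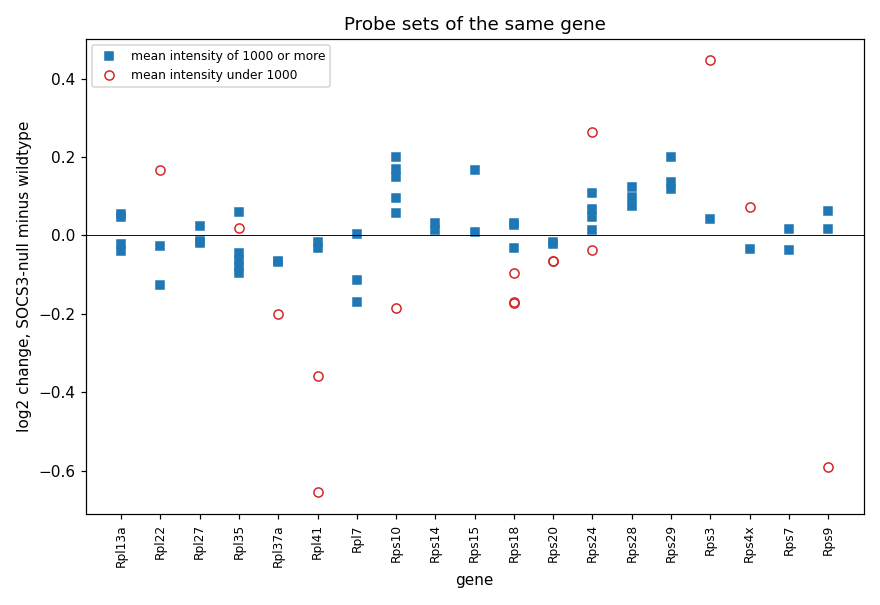
Log2 change (vertical axis, SOCS3-null minus wildtype) of every tested probe set of the bright ribosomal protein genes that have several, with filled squares for a mean intensity of 1000 or more and open circles below. Dim probe sets of Rpl41 (-0.65), Rps9 (-0.59) and Rps3 (0.45) lie farthest from the bright ones.

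Another 110 probe sets carry several symbols of which 1 or more is a ribosomal protein name. They name no single gene and 27 further subunits appear on this array only there. Of these probe sets 104 were tested, with a median change of -0.03, and limma called 2 higher and 2 lower (15.9% of all probe sets). Rpsa and Fau encode small-subunit proteins under names the rule does not take. Rpsa had 18577 and 17251 in SOCS3-null and 16098 and 16497 in wildtype, a change of 0.14 (limma adjusted p = 0.329). Fau changed by 0.01.

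Genes that build and run the ribosome were counted in lists of their own, read against the same 13.1% of genes called higher and 9.55% called lower. Of 52 ribosome biogenesis factors tested 12 fell in SOCS3-null cells and none rose (limma; 27 had an unadjusted p under 0.05), and 48 had a change below 0 with a median of -0.33. Utp14a, of the complex that processes the small-subunit precursor, had 476 and 505 in SOCS3-null and 1074 and 1121 in wildtype, a change of -1.14 (limma adjusted p = 0.00769). Riok2, a kinase of late small-subunit maturation, fell by 0.87, and Nop58, a core protein of the particles that methylate rRNA, fell by 0.60. The abundant nucleolar proteins Npm1 (-0.13) and Ncl (-0.08) were not called.

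Of 18 genes of RNA polymerase I and rRNA synthesis 4 fell and none rose, with a median of -0.23, and these 4 alone had an unadjusted p under 0.05. These were Polr1a, the largest subunit of the polymerase (-0.49), Polr1c (-0.54), Polr1e (-0.37) and Taf1b, of the promoter selectivity factor (-0.65). Of 10 alternatives that kept all arrays, Polr1a stayed called in 9, Polr1c in 8, Taf1b in 6 and Polr1e in 3. Of 76 mitochondrial ribosomal proteins 7 fell and none rose (20 at an unadjusted p under 0.05), with a median of -0.14 and 53 below 0. The share that fell was close to the 9.55% called lower over all genes tested. Mrps24 had 2067 and 2192 in SOCS3-null and 3893 and 3873 in wildtype, a change of -0.86, and Mrpl50 changed by -0.92. These lists had no test of their own, and the difference between them and the cytosolic subunits was not tested. The endoderm markers named above rose on the same arrays, and their part in these values was not tested.

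Of 30 translation initiation factors 2 fell and 1 rose, with a median of -0.03. Eif1ax, which helps to select the start codon, fell by 0.97, and Eif2b3, of the factor that recycles eIF2, fell by 0.59, while Eif3i rose by 0.39. Eif1ax stayed called in 10 of the 10 alternatives with all arrays, Eif2b3 in 8 and Eif3i in 6. Among 14 genes listed as elongation factors and other TOP genes 2 fell, Eef1e1 by 0.57 and Nap1l1 by 0.43. A place in this list does not show that Eef1e1 works in elongation. The elongation factor genes Eef1b2 (0.00), Eef1d (-0.21) and Eef2 (0.16) were not called. Changes lay above 0 for 5 of the 14 and below 0 for 9. Pabpc1 was higher on both SOCS3-null arrays (0.33, limma adjusted p = 0.0752) but was not called. Eef1a1, the most abundant elongation factor, changed by -0.01. At a share close to the 9.55% called lower over all genes tested, 2 of 21 genes of mTOR and S6 kinase signalling fell. These were Larp1, which binds the TOP motif, with 1199 and 1223 in SOCS3-null and 1725 and 1656 in wildtype (-0.48, limma adjusted p = 0.0283), and the kinase gene Rps6ka6 (-1.57). Mtor (-0.22) and the kinase gene Rps6kb2 (0.17) were not called, and Rps6kb1 had no probe set under its symbol alone.

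Of 14 transcription factors named for ribosomal protein promoters 4 fell and none rose (7 at an unadjusted p under 0.05). Myc, which activates ribosome genes widely, had 170 and 136 in SOCS3-null and 253 and 297 in wildtype, a change of -0.79 (limma adjusted p = 0.0370). Patz1 fell by 1.01, Mnt, a Max partner that opposes Myc, by 0.45, and Nrf1 by 0.41. Of the 10 alternatives with all arrays, Patz1 stayed called in 10, Myc in 8, and Mnt and Nrf1 in 6 each. Of the 4 p53-related genes tested 2 rose: Mdm2, the p53 ligase that Rpl11 can bind, by 0.66 and Cdkn1a, a p53 target that stops the cell cycle, by 1.41.

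**Figure D5:**
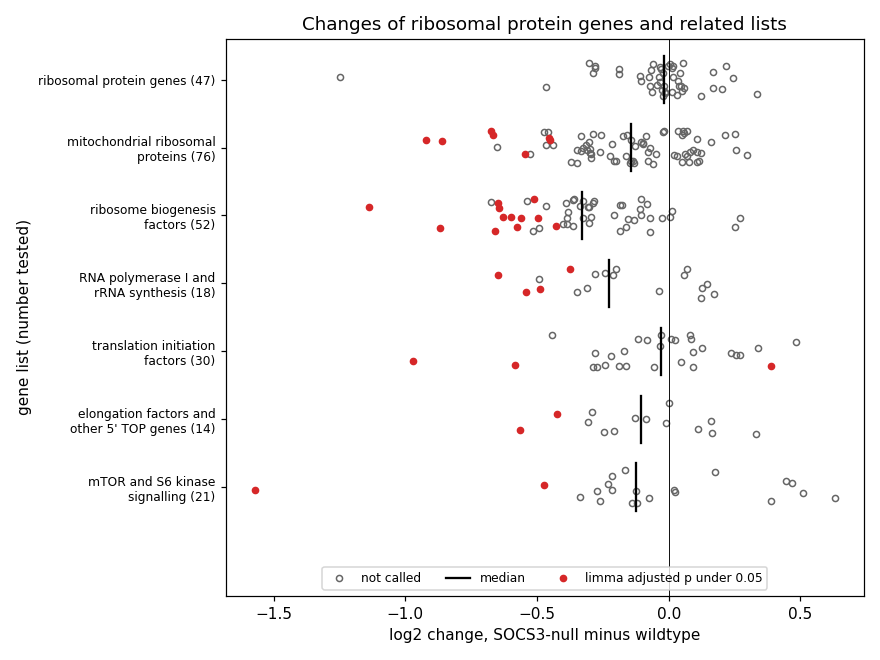
Log2 change (horizontal axis, SOCS3-null minus wildtype) of every tested gene of 7 lists, with called genes filled, others open and a bar at each median. The 47 ribosomal protein genes in the top line have no called gene and a median of -0.02, and the ribosome biogenesis factors have 12 called genes, all below 0, and a median of -0.33.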

How the data were processed

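Per the labels, total RNA of mouse ES cells was measured on 2 SOCS3-null and 2 wildtype arrays. The values deposited by the authors are intensity values on a linear scale, 45101 per array, with medians of 15.8 to 16.0. The step from scans to values is not given in the sources used here, and no further normalization was applied. The number of arrays limits the precision. Equal values on 2 or more arrays occurred in 7 of the ribosomal protein genes.

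Control probe sets (64) were not used. Values were tested as log2(intensity + 16), which understates changes of dim genes, for probe sets whose mean reached the 40th percentile, with limma 3.58.1 in R 4.3.3 (lmFit, eBayes, genotype as the only term, two-sided, Benjamini-Hochberg, called under 0.05). The brightest probe set stood for its gene. Symbols came from a platform annotation and all 49 genes were found in a RefSeq table of GRCm38.p6. The fit was tested on simulated data. Intervals are 95% intervals of the fit without adjustment.

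Members and gene lists were chosen with earlier results of these data known. Named genes were Socs3, paralogs and their partners, the stalk, the members with the widest spread within a genotype and the 4 genes of each list with the smallest p; others were named after their values were seen. Tried as alternatives were other pseudocounts (1 and 64), normalization by quantiles or by medians, other filters (none, or the 60th percentile), an eBayes trend, replicate blocks, other choices of probe set and leaving out each array. Same-numbered arrays did not deviate together (correlation of deviations -0.12). Figures were drawn with matplotlib 3.10.9.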

Additional observations from a re-analysis of the deposited data

How the results depend on the processing

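No ribosomal protein gene was called higher under any alternative. Called lower was 1, Rpl22l1, with a pseudocount of 64, and 0 under every other alternative, where 0 to 8 had an unadjusted p under 0.05. With any 1 array left out the genes called over all genes tested ranged from 0 to 0 by limma, while 2928 to 4733 had an unadjusted p under 0.05, and the lone array is assumed to vary like the other group. Genes called over all genes numbered 1631 with no filter and 1914 with the replicate block, against 2888 without these, and 0 ribosomal protein genes were called with the block. The replicate number has no stated pairing, and a crossed replicate block, chosen after seeing the data, gave 2817. The median log2 change of the ribosomal protein genes was -0.0081 with median centring, -0.035 over the 42 genes left with no shared-probe suffix, and -0.024 to -0.0030 with any 1 array left out. The sign of the change turned in the following cases, most of them close to 0 as reported but not Pabpc1 (0.33), Mdm4 (0.28), Rps25 (0.33), Rpl27a (0.24), Rps6 (-0.19) and Rpl39l (-1.25). Under quantile normalization these were Rpl27 (0.0076), Rpl39 (-0.017), Rps3a1 (0.020) and Rps7 (-0.019), and under median centring Rplp0 (0.0051). With the mean of probe sets these were Rpl22 (0.0046), Rpl7 (-0.094), Rps4x (0.020), Rps7 (-0.011), Rps9 (-0.17), Mdm4 (-0.050) and Pabpc1 (-0.12). With no shared-probe suffix these were Rpl13a (-0.040), Rpl35 (0.059), Rps7 (-0.037), Rps9 (-0.59) and Mdm4 (-0.42); the cause was not tested, other than that another probe set stands for the gene. With 1 array left out in turn the change ran from -0.0073 to 0.020 for Fau, -0.017 to 0.12 for Rpl13a, -0.050 to 0.0030 for Rpl19, -0.069 to 0.040 for Rpl27, -0.061 to 0.55 for Rpl27a, -0.29 to 0.14 for Rpl37, -0.0011 to 0.023 for Rpl39, -3.18 to 0.68 for Rpl39l, -0.033 to 0.0082 for Rpl4, -0.018 to 0.023 for Rpl7, -0.15 to 0.029 for Rpl7a, -0.022 to 0.012 for Rplp0, -0.014 to 0.075 for Rps14, -0.018 to 0.093 for Rps19, -0.063 to 0.019 for Rps20, -0.26 to 0.93 for Rps25, -0.77 to 0.39 for Rps6, -0.021 to 0.051 for Rps7 and -0.0076 to 0.040 for Rps9. Over all alternatives Rpl12 ran from -0.61 to -0.32, Rpl22l1 from -0.35 to -0.26, Rps27l from 0.12 to 0.27 and Rps29 from 0.15 to 0.22, without a change of sign; Rps29 has no probe set free of a shared-probe suffix, so that alternative was not run for it. Of the other named genes called, 8 of 10 alternatives with all arrays kept Eef1e1 and Nap1l1, and 9 kept Nop58, Larp1, Rps6ka6 and Cdkn1a. With other probe sets of the partner, chosen after seeing the data, the difference of Rpl22l1 was -0.18 and -0.47, that of Rpl7l1 -0.16 and -0.11, and that of Rps4l -0.26.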
